A study of Homo sapiens with 6 samples.

Results

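Cathepsins are the proteases of the lysosome, and their mRNA levels were described here in 6 bulk RNA-seq libraries labelled as PANC-1, a pancreatic carcinoma cell line. Markers in the 3 control libraries went against that label, as given below. The family was taken by gene symbol, as the rows of the count table named CTSA, CTSB, CTSC, CTSD, CTSF, CTSH, CTSL, CTSS, CTSV and CTSZ. All 10 were found among 60623 gene rows, and all 10 were among the 17451 genes tested. Per the sample titles, an shRNA targeting STN1 was carried by the cells of 3 libraries, and a control hairpin by those of the other 3. The descriptions call the control scramble. The genotype labels of some shSTN1-labelled libraries read STN2 and STN3 knockdown instead, as given below. STN1 encodes a subunit of the CST complex, which helps to fill in the strand opposite the single-stranded end of telomeres. The growth conditions were the same in both groups per the labels' protocols, with DMEM medium and fetal bovine serum. The labels call the hairpin libraries Sh4 and give neither the number of clones nor a time point. Each library is called a biological replicate, but whether cultures were separate is not said. Every p-value here therefore reflects how far libraries of a group lie apart, and this may be technical.

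Cathepsins are made as inactive precursors, tagged with mannose 6-phosphate in the Golgi, carried to the acidic lysosome and activated there by removal of the propeptide. Most are cysteine proteases of the papain family, whereas CTSD is an aspartic protease and CTSA a serine carboxypeptidase. Some cut inside proteins and others trim their ends. In pancreatic carcinoma, cathepsins B, L, S and others are known to be secreted or moved to the cell surface, where they can degrade matrix. A bulk RNA level cannot tell a change in RNA per cell from a change in the share of cells that make it.

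The upstream sequences of the members that the results turn on are shown first, because some hold letters known from lysosomal promoters and because the relatives CTSL and CTSV share a run of letters. They are the 250 bases before the annotated RefSeq start (GRCh38.p14), written 5′ to 3′ on the strand of the gene. This start can differ from the GENCODE gene positions given further below. The windows of CTSA, CTSD, CTSL and CTSV lie within those positions, and that of CTSF partly does. Of the 10 members, 8 were matched in the RefSeq promoter table, and CTSB and CTSS were not. For CTSA (chr20:45891085-45891334, plus strand), CTSD (chr11:1763928-1764177, minus strand), CTSF (chr11:66568607-66568856, minus strand) and CTSZ (chr20:59007255-59007504, minus strand), capitals mark the E-box CACGTG, the core of the element bound by TFEB and related factors that control lysosomal genes.
CTSA: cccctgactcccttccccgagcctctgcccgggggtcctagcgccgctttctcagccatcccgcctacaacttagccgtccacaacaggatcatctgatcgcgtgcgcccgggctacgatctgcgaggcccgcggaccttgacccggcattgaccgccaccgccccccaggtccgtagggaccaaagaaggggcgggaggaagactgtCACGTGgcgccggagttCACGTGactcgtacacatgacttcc
CTSD: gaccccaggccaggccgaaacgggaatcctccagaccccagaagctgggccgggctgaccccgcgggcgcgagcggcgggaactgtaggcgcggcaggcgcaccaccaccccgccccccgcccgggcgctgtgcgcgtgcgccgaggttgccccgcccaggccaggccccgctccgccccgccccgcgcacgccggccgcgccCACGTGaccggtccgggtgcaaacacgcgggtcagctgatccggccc
CTSF: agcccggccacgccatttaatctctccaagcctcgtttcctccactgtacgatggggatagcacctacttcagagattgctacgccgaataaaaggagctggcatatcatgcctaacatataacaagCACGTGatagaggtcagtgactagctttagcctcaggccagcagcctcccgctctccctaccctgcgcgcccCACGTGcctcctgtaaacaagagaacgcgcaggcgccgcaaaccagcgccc
CTSZ: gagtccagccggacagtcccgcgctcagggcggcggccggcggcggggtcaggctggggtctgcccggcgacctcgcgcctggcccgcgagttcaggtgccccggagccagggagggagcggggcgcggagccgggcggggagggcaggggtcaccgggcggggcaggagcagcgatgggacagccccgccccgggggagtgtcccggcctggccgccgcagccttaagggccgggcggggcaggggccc
The letters CACGTG, which read the same on both strands, occurred 42 and 25 bases before the start of CTSA, 47 bases before that of CTSD, and 123 and 51 bases before that of CTSF. They occurred in 3 of 8 members and in 6.34% of 35116 upstream windows of the same length. The CTSZ window held no CACGTG. The letters GGGCGG, read on either strand and not overlapping CACGTG, occurred in 7 of 8 members and in 42.6% of all windows. CTSF was the member without them.

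CTSL and CTSV are close relatives on chromosome 9 whose levels behaved differently, so their windows are set side by side (CTSL at chr9:87725869-87726118, plus strand, CTSV at chr9:97039143-97039392, minus strand). Capitals mark the longest run of letters that the windows share.
CTSL: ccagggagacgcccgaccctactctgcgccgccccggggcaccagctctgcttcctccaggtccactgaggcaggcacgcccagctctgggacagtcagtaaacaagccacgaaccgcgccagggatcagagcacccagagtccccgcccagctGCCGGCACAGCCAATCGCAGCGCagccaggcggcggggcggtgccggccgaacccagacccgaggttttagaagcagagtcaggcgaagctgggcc
CTSV: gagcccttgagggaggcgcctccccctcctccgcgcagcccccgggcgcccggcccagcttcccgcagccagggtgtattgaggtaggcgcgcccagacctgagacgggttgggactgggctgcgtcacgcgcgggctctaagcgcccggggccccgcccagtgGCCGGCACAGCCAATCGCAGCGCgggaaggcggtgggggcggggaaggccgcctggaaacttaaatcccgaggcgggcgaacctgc
The shared run is 23 bases long and holds the letters CCAAT. On either strand, it occurred in 2 of 35116 windows, those of CTSL and CTSV. CCAAT itself, read on either strand, occurred in 3 of 8 members and in 32.0% of all windows.

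The depth and the labels set limits that hold for every value below. The shSTN1-labelled libraries held 18813591 to 23336942 counted reads and the control libraries 17357223 to 20660453 reads. STN1 had 303, 306 and 275 reads in the shSTN1-labelled libraries and 387, 346 and 278 in the control libraries, a log2 fold change of -0.15 (SE 0.105, edgeR adjusted p = 0.253). An exact two-sided permutation test gave p = 0.3, and its smallest possible p with this design is 0.1. With library totals in place of scaling factors, STN1 passed as lower (-0.35, edgeR adjusted p = 0.0091). In CPM the groups overlapped (14.02 to 15.6 and 15.1 to 18.6 CPM in shSTN1-labelled and control libraries), so the targeted mRNA did not separate the labels, and directions below are between libraries as labelled. The genotype label of 2 shSTN1-labelled libraries reads STN2 and STN3 knockdown against their titles, which were used for grouping. In the shSTN1-labelled libraries, 11 of 12 carcinoma line markers rose and 1 fell, with KRT18 at 57849 and 9422 reads in shSTN1-labelled and control libraries and KRT8 at 3606 ± 66.8 and 606 ± 23.9 CPM (SD, n = 3 each). CPM are read counts divided by the scaled library size. Among 11 genes known from embryonic kidney cell lines, 10 fell and 1 rose, and IRS4 had 3 reads in the shSTN1-labelled and 20505 in the control libraries. Both marker lists were chosen with earlier results of these data known. Over all genes tested, 35.6% were called higher and 38.5% lower. SLIT2 had 0 reads in the shSTN1-labelled and 14295 in the control libraries. CDKN2A, also among the 11 genes and described as lacking in PANC-1, had 0 reads in the shSTN1-labelled and 11753 in the control libraries. The markers of the control libraries thus went against their PANC-1 label, and the hairpin and a difference between the cells cannot be told apart in any value below.

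Of the 10 cathepsins, 7 rose, 2 fell and 1 did not pass the test in the shSTN1-labelled libraries. At the edgeR adjusted p threshold of 0.05, 74.1% of the whole table passed in either direction, 35.6% as higher and 38.5% as lower, so that passing does not set a cathepsin apart. The members' median log2 fold change was 0.98, against -0.03 over all genes tested. At least 2-fold higher levels were found for 5 members, CTSS, CTSZ, CTSD, CTSV and CTSB, where 15.7% of all genes were called at least 2-fold higher and 34.6% at least 2-fold changed in either direction. CTSB lies at that boundary (1.00), and over the alternatives 3 to 5 members were at least 2-fold higher. With library totals in place of scaling factors the 3 were CTSS, CTSZ and CTSD, with CTSB at 0.80 and CTSV at 0.88. No member was called at least 2-fold lower, where 19.0% of all genes were. The groups did not overlap for 9 of the 10 members, and they did not overlap for 75.6% of all genes.

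**Figure D1:**
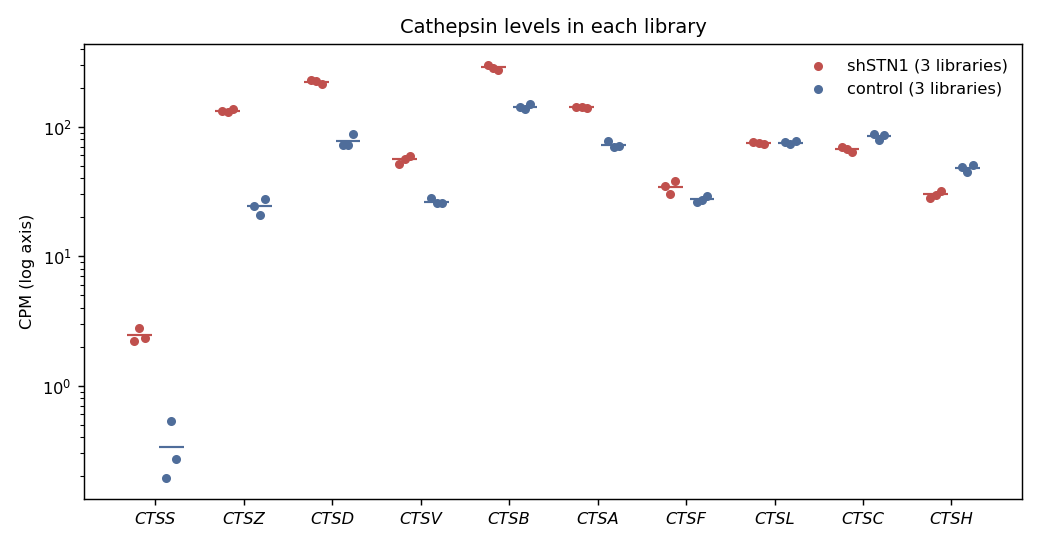
Level of each cathepsin in CPM (log axis) in the 3 shSTN1-labelled libraries (red, left of each pair) and the 3 control libraries (blue, right), with a line at each group mean; genes run from the highest to the lowest fold change. The groups lie apart for every member except CTSL, and CTSS is the least abundant in both groups.

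**Figure D2:**
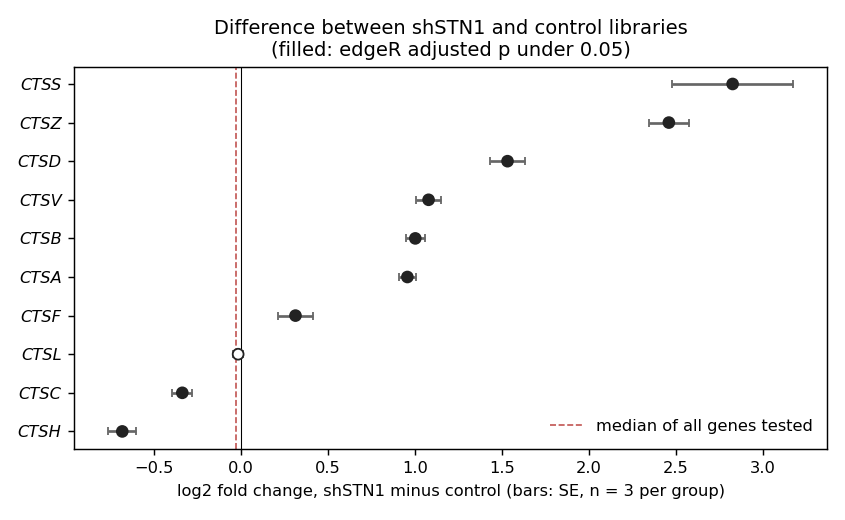
Log2 fold change of shSTN1-labelled minus control libraries for each cathepsin, with the SE of the difference in mean log2 CPM (n = 3 per group). Values run from 2.83 for CTSS to -0.68 for CTSH, filled points passed the edgeR adjusted p of 0.05, and the dashed line is the median of all genes tested.

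The aspartic protease CTSD (ENSG00000117984.14, chromosome 11, positions 1752752 to 1764573, GRCh38, minus strand) cleaves proteins in the lysosome and processes prosaposin. It had 228, 225 and 215 CPM in the shSTN1-labelled libraries, against 72.0, 71.6 and 87.6 CPM in the control libraries. Every shSTN1-labelled library stood above every control library. CTSD was 2.89-fold higher, a log2 fold change of 1.53 (SE 0.0986, edgeR adjusted p = 7.68e-19). The serine carboxypeptidase CTSA (ENSG00000064601.18, chromosome 20, 45890144 to 45898820, plus strand) also protects the enzymes NEU1 and GLB1 by binding them. CTSA had 142, 141 and 141 CPM in the shSTN1-labelled libraries, against 77.6, 69.4 and 70.9 CPM in the control libraries. The shSTN1-labelled libraries were nearly equal to each other, with a coefficient of variation of 0.505% against 6.03% in control. Sampling alone is expected to give a wider spread at their 2477 to 3075 reads. The difference in spread was not tested. The difference was 1.94-fold (log2 fold change 0.96, SE 0.0496, edgeR adjusted p = 4.53e-14). Its partner NEU1, a sialidase, rose (0.75) and its partner GLB1, a beta-galactosidase, fell (-0.66). Both partners were named for this complex after their values were seen. CTSA overlaps the PLTP gene on the opposite strand, and the strand setting of the counting is not given in the sources used here, so reads from the overlap cannot be assigned. PLTP had 1744 reads in the shSTN1-labelled and 4002 in the control libraries, where CTSA had 8458 and 4473. The part of shared reads in the CTSA difference was not tested.

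The cysteine carboxypeptidases both rose, where 35.6% of all genes tested were called higher. Grouping by activity serves the description only, and a link of activity with direction was not tested. CTSZ (ENSG00000101160.14, chromosome 20, 58995185 to 59007247, minus strand) removes single residues from the C-terminus and carries an integrin-binding motif in its propeptide. It had 132, 131 and 137 CPM in the shSTN1-labelled libraries, against 24.5, 20.9 and 27.4 CPM in the control libraries. This was the smallest adjusted p of the 10 members, with a 5.50-fold higher level (log2 fold change 2.46, SE 0.115, edgeR adjusted p = 1.56e-22). CTSB (ENSG00000164733.21, chromosome 8, 11842524 to 11869448, minus strand) acts as a dipeptidyl carboxypeptidase and also as an endopeptidase. It had 301, 285 and 274 CPM in the shSTN1-labelled libraries, against 143, 137 and 150 CPM in the control libraries. CTSB was 2.01-fold higher, with no overlap of the groups (log2 fold change 1.00, SE 0.0551, edgeR adjusted p = 2.01e-15). In reads per library, it was the member with the most in every library.

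The cysteine aminopeptidases both fell, where 38.5% of all genes tested were called lower. CTSH (ENSG00000103811.16, chromosome 15, 78921058 to 78949574, minus strand) removes single residues from the N-terminus. It had 28.3, 29.7 and 32.0 CPM in the shSTN1-labelled libraries, against 48.9, 44.3 and 51.0 CPM in the control libraries. The level was 0.624 of control (log2 fold change -0.68, SE 0.0792, edgeR adjusted p = 4.03e-08). CTSC (ENSG00000109861.16, chromosome 11, 88293592 to 88337787, minus strand) removes dipeptides and thereby activates the serine proteases of leukocyte granules. CTSC had 69.4, 67.2 and 63.7 CPM in the shSTN1-labelled libraries, against 87.6, 79.3 and 85.9 CPM in the control libraries. The groups did not overlap, with a level of 0.793 of control (log2 fold change -0.34, SE 0.0563, edgeR adjusted p = 1.54e-04).

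The endopeptidases differed among themselves. CTSL (ENSG00000135047.15, chromosome 9, 87725519 to 87731393, plus strand), a broad lysosomal protease also known to work in the nucleus and outside the cell, had 75.8, 74.4 and 73.8 CPM in the shSTN1-labelled libraries, against 76.0, 72.9 and 77.4 CPM in the control libraries. The groups overlapped, and the log2 fold change of -0.01 (SE 0.0280) had an edgeR adjusted p of 0.867 and a limma-voom 95% interval of -0.15 to 0.13. CTSV (ENSG00000136943.11, chromosome 9, 97029679 to 97039643, minus strand) is a relative of CTSL known from thymus and testis. It had 51.9, 56.3 and 59.5 CPM in the shSTN1-labelled libraries, against 28.0, 25.6 and 25.7 CPM in the control libraries. CTSV was 2.11-fold higher (log2 fold change 1.08, SE 0.0704, edgeR adjusted p = 1.01e-12). Of the reads on this pair of relatives, CTSV held 40.6%, 43.0% and 44.6% in the shSTN1-labelled libraries and 26.9%, 26.0% and 25.0% in the control libraries. The 7 annotated CTSL pseudogenes had 5 reads over all libraries.

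CTSS (ENSG00000163131.11, chromosome 1, 150730196 to 150765957, minus strand) stays active at neutral pH and is known for cutting the invariant chain CD74 in antigen-presenting cells. It had 45, 61 and 41 reads in the shSTN1-labelled libraries, against 4, 12 and 5 reads in the control libraries. The highest fold change of the family thus rests on the fewest reads. CTSS stood at 2.44 ± 0.314 CPM in shSTN1-labelled and 0.333 ± 0.181 CPM in control libraries (SD, n = 3 each), a log2 fold change of 2.83 (SE 0.348, edgeR adjusted p = 7.29e-08). CTSF (ENSG00000174080.11, chromosome 11, 66563463 to 66568841, minus strand), which carries a cystatin-like stretch in its long propeptide, had 34.7, 30.4 and 37.9 CPM in the shSTN1-labelled libraries, against 26.2, 27.3 and 29.1 CPM in the control libraries. The lowest shSTN1-labelled library was close to the highest control library. CTSF was 1.24-fold higher (log2 fold change 0.32, SE 0.102, edgeR adjusted p = 0.00439). This call was lost without shSTN1 replicate 3 (0.25, edgeR adjusted p = 0.0507) and with library totals in place of scaling factors (0.12, adjusted p = 0.285), within adjusted p-values of 0.00107 to 0.285 over the alternatives. With library totals CTSL passed as lower (-0.21, adjusted p = 0.00869), while the median of all genes lay at -0.22 instead of -0.03 and 38.0% instead of 48.0% of all calls were higher.

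The makeup of the family differed between the groups when levels were set per length of the principal GENCODE transcript. Together the 10 members reached 453, 444 and 444 CPM per kb in the shSTN1-labelled libraries, against 246, 230 and 255 CPM per kb in the control libraries. Their reads made up 0.0970% to 0.0985% of all counted reads in the shSTN1-labelled libraries and 0.0594% to 0.0644% in the control libraries. In the shSTN1-labelled libraries the order of levels per kb was CTSD (105 ± 3.31), CTSZ (89.1 ± 2.15), CTSB (74.0 ± 3.53), CTSA (65.7 ± 0.335), CTSC (34.8 ± 1.48), CTSL (34.3 ± 0.476), CTSF (16.9 ± 1.86), CTSH (13.7 ± 0.856), CTSV (12.9 ± 0.883) and CTSS (0.594 ± 0.0765; SD, n = 3). The neighbours CTSC and CTSL, and CTSH and CTSV, did not differ beyond their SDs, though CTSH stood above CTSV in every shSTN1-labelled library. In the control libraries the order was CTSC (43.9 ± 2.28), CTSB (36.9 ± 1.70), CTSD (36.3 ± 4.28), CTSL (34.7 ± 1.06), CTSA (33.8 ± 2.04), CTSH (21.9 ± 1.56), CTSZ (16.2 ± 2.18), CTSF (13.5 ± 0.711), CTSV (6.12 ± 0.307) and CTSS (0.0812 ± 0.0439). From CTSB to CTSA, neighbours in the control order lay within their SDs. CTSZ stood above CTSF in each control library (16.4 and 12.9, 13.98 and 13.4, and 18.3 and 14.3). CTSD and CTSZ held 23.5% and 19.9% of the summed level per kb in the shSTN1-labelled libraries and 14.9% and 6.67% in the control libraries, whereas CTSC held 7.78% in shSTN1-labelled and 18.01% in control libraries. CTSB had a share of 15.95% to 17.2% in the shSTN1-labelled libraries and of 15.0% to 15.4% in the control libraries. The order depends on the length used. Per kb of all annotated exons joined, which is 11421 bases for CTSC against a principal transcript of 1921 bases, CTSC took rank 8 in both groups and CTSL rank 1 in control.

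**Figure D3:**
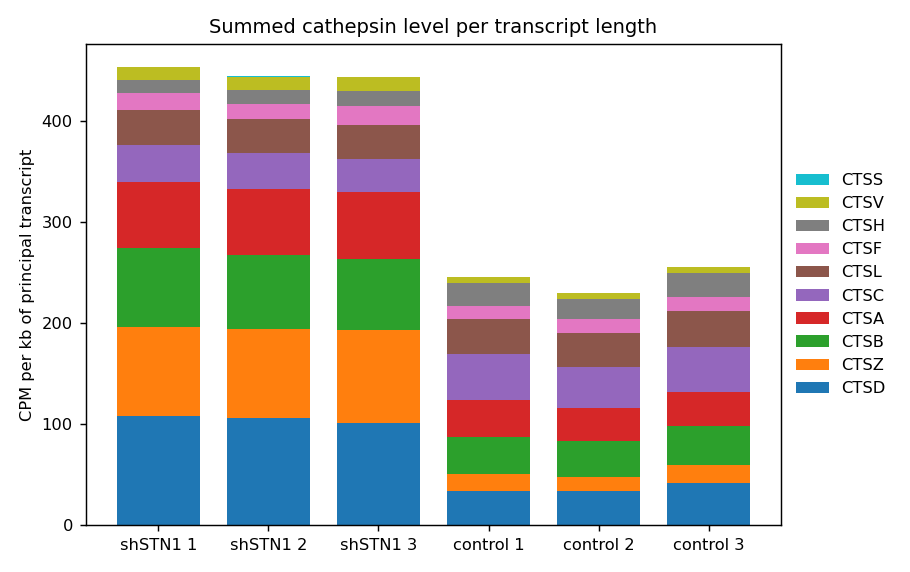
Level of each cathepsin in CPM per kb of its principal transcript, stacked for each of the 3 shSTN1-labelled libraries (left) and the 3 control libraries (right). The summed level is 444 to 453 in the shSTN1-labelled and 230 to 255 in the control libraries, and the CTSD and CTSZ blocks take a larger part of the bars on the left.

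The cathepsins outside the family list had few reads. CTSK and CTSO still had more than the listed member CTSS, which had 147 in the shSTN1-labelled and 21 in the control libraries. CTSK, the collagen-degrading protease of bone-resorbing cells, had 276 reads in the shSTN1-labelled and 146 in the control libraries and rose (log2 fold change 0.96, edgeR adjusted p = 3.68e-04). CTSO had 194 reads in the shSTN1-labelled and 104 in the control libraries and rose as well (0.93, edgeR adjusted p = 0.00105). CTSW, a protease of cytotoxic lymphocytes, had 24 reads in the shSTN1-labelled and 14 in the control libraries and was not tested. The aspartic protease CTSE had 6 reads in the shSTN1-labelled and 0 in the control libraries, and CTSG, a serine protease of neutrophil granules, had 0 in all.

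Of 23 genes of cathepsin inhibitors, 6 had enough reads to be tested, of which 5 rose, 0 fell and 1 did not pass. Over all genes tested, 74.1% were called in either direction, 35.6% as higher and 38.5% as lower. CSTB, the cytosolic cystatin B that binds papain-like cathepsins, stood at 224 ± 11.3 CPM in shSTN1-labelled and 92.4 ± 7.04 CPM in control libraries (log2 fold change 1.28, edgeR adjusted p = 1.68e-17). The serpin genes SERPINB6 (1.09) and SERPINB1 (0.68), whose products inhibit cathepsin G among other serine proteases, rose too. SPOCK1, which encodes the proteoglycan testican, had 226 reads in the shSTN1-labelled and 89 in the control libraries (1.41). SERPINA3, named after its values were seen, rested on 65 and 8 reads in shSTN1-labelled and control libraries (3.01). CST3, the secreted cystatin C, also named after its values were seen, stood at 86.1 ± 3.98 CPM in shSTN1-labelled and 92.1 ± 4.33 CPM in control libraries (-0.10, edgeR adjusted p = 0.223). Another 10 of the 23 genes had no reads in any library.

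The genes that sort and mature lysosomal enzymes moved both ways. Of 25 tested, 6 rose (24.0%), 13 fell (52.0%) and 6 did not pass, with a median log2 fold change of -0.16. Of all genes tested, 35.6% rose and 38.5% fell. IGF2R, the large mannose 6-phosphate receptor, stood at 879 ± 24.9 CPM in shSTN1-labelled and 354 ± 37.3 CPM in control libraries (1.31, edgeR adjusted p = 8.33e-18). PSAP, the saposin precursor that CTSD cleaves, stood at 2783 ± 63.3 CPM in shSTN1-labelled and 1031 ± 40.5 CPM in control libraries (1.43, edgeR adjusted p = 6.56e-20). SORT1, the receptor sortilin that carries lysosomal enzymes independently of mannose 6-phosphate, fell (-1.30), as did the adaptor gene AP1B1 (-0.93). LGMN, the asparaginyl endopeptidase that cuts cathepsins B, H and L into their chains, was named after its values were seen and fell (-0.75, edgeR adjusted p = 4.69e-11).

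The TFEB family and its regulators gave small differences. Of 17 tested genes, 8 rose (47.1%), 3 fell (17.6%) and 6 did not pass, with a median of 0.12. The shares of all genes tested were 35.6% higher and 38.5% lower. With library totals in place of scaling factors, 5 rose and 6 fell. The nutrient-sensing GTPase genes RRAGA (-0.87) and RRAGD (-0.88) fell, whereas RRAGC (0.76) and the folliculin partner FNIP1 (0.71) rose. The transcription factors themselves were named after their values were seen. TFEB stood at 10.8 ± 0.565 CPM in shSTN1-labelled and 13.99 ± 2.00 CPM in control libraries (-0.37, edgeR adjusted p = 0.0119) and TFE3 at 84.8 ± 3.89 CPM in shSTN1-labelled and 66.2 ± 3.98 CPM in control libraries (0.36, edgeR adjusted p = 7.81e-05). MITF had 12.6 ± 0.126 CPM in shSTN1-labelled and 11.6 ± 0.687 CPM in control libraries (0.12, edgeR adjusted p = 0.392). On the log2 scale CTSA, CTSD and CTSF, whose windows hold CACGTG, rose by 0.96, 1.53 and 0.32. Of the members whose windows do not hold it, CTSZ (2.46) and CTSV (1.08) rose. CTSH (-0.68) and CTSC (-0.34) fell, and CTSL (-0.01) did not pass. The part of these letters in the differences was not tested.

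The other lysosomal lists are read beside the 35.6% of all genes called higher and the 38.5% called lower. Of 39 tested hydrolase genes other than cathepsins, 24 rose (61.5%), 8 fell (20.5%) and 7 did not pass (median 0.42). They included the dipeptidyl peptidase gene DPP7 (1.97), the sulfatase gene GALNS (1.45), the acid lipase gene LIPA (1.15) and the tripeptidyl peptidase gene TPP1 (1.09). Of 21 tested genes of lysosomal membrane proteins, 14 rose (66.7%), 4 fell (19.0%) and 3 did not pass (median 0.51), with OSTM1 (1.80), CD63 (1.13), LAMP1 (0.94) and CD164 (0.86) among those raised. Of 18 tested subunits of the V-ATPase, the pump that acidifies the lysosome, 4 rose (22.2%), 7 fell (38.9%) and 7 did not pass (median -0.14). The share that fell was close to that of all genes. With library totals 1 rose and 12 fell. ATP6V0E1 rose (1.01), and ATP6V0E2 (-0.92), ATP6V0A1 (-0.83) and ATP6V1A (-0.66) fell.

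**Figure D4:**
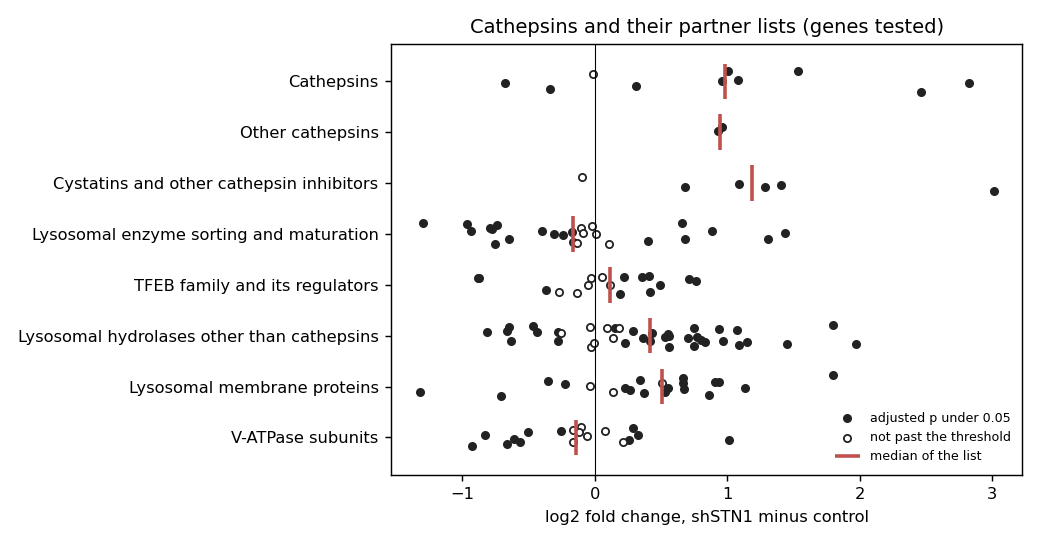
Log2 fold change of shSTN1-labelled minus control libraries for the tested genes of each list, with cathepsins at the top; filled points passed the edgeR adjusted p of 0.05 and red bars are list medians. The cathepsin median is 0.98, that of the hydrolases 0.42, and those of sorting genes and V-ATPase subunits lie below 0.

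Genes that meet single cathepsins did not move as a block. CD74, the invariant chain cut by CTSS, had 590 reads in the shSTN1-labelled and 48 in the control libraries (log2 fold change 3.64, edgeR adjusted p = 1.94e-16). In the MHC class II list, 1 of 11 tested genes rose, 8 fell and 2 did not pass (median -3.52). This count and those of the lists that follow stand beside 35.6% of all genes called higher and 38.5% called lower. HLA-DQB1 had 67 reads in the shSTN1-labelled and 1264 in the control libraries (-4.21), HLA-DMB 27 and 393 (-3.81) and HLA-DRB1 9 and 252 (-4.73). Among the granule proteins of the serine protease family listed as processed by CTSC, 4 of 11 genes were tested. Of these, 2 rose, AZU1 (284 reads in shSTN1-labelled and 108 in control libraries) and GZMM (87 and 25). Because CTSS and CTSC are prominent in leukocytes, leukocyte markers were examined beside them. Of 13 markers, 4 were tested and 3 rose, ITGAM (3.68), CORO1A (0.49) and LAPTM5 (1.80). The summed level of the list was 21.2 to 23.5 CPM in the shSTN1-labelled and 13.4 to 16.5 CPM in the control libraries, most of it CORO1A. The 9 untested markers had at most 43 reads each over all libraries. Of these, named after their values were seen, FCER1G had 30 reads in the shSTN1-labelled and 2 in the control libraries, and PTPRC, the marker of all leukocytes, had 2 and 0. TYROBP and CD163 had 0 in every library. Of 10 endothelial markers, 4 were tested, of which 0 rose, 2 fell (FLT1 and CLDN5) and 2 did not pass. The summed level was 54.6 to 62.7 CPM in shSTN1-labelled and 72.2 to 83.9 CPM in control libraries, most of it EGFL7. FLT1 had 7 reads in the shSTN1-labelled and 947 in the control libraries. Named after their values were seen, EGFL7 (-0.11) and KDR (0.59) did not pass. So named too, the untested genes were TIE1 (28 and 5 reads), VWF (8 and 11), CDH5 (4 and 4), TEK (2 and 3), ROBO4 (1 and 3) and PECAM1 (0 and 0). Of 10 fibroblast markers, 5 were tested, of which 3 rose (COL1A1, THY1 and COL3A1), 0 fell and 2 did not pass. Their summed level was 170.9 to 184.8 CPM in shSTN1-labelled and 75.8 to 91.6 CPM in control libraries, most of it COL1A1. The others were named after their values were seen. ACTA2 had 100 reads in the shSTN1-labelled and 131 in the control libraries, PDGFRB 80 and 44, and neither passed. Untested were LUM (2 and 30 reads), PDGFRA (13 and 27), DCN (0 and 6), COL1A2 (2 and 1) and FAP (2 and 1). The part of any of these lists in the cathepsin differences was not tested.

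The chromosomal neighbours of each member were set beside it, as tested genes that start within 1 Mb. Their counts are read beside the 35.6% of all genes called higher and the 38.5% called lower. CTSD lay among raised genes, where 27 of 36 neighbours rose, 2 fell and the median log2 fold change was 0.82, and 10 of the 36 stood above CTSD. The neighbours of CTSF were likewise mostly higher, 59 of 77, with 8 lower and a median of 0.69, above the value of CTSF itself. CTSZ stood above all of its 17 neighbours (median -0.34) and CTSS above all of its 59 (median -0.40). CTSB stood above 17 of its 18 neighbours, of which 12 were lower and 1 higher (median -2.08). The neighbours of CTSA had a median of -0.04 over 33 genes, those of CTSV -0.74 over 26 and those of CTSH -0.12 over 24. CTSL had 5 tested neighbours, of which 4 were lower and 0 higher (median -4.98), and CTSC had 1, RAB38 (-4.43). CTSL and CTSC, which did not rise, thus also stood above all of their few neighbours. For CTSD and CTSF, the part of the surrounding stretch in their difference was not tested.

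**Figure D5:**
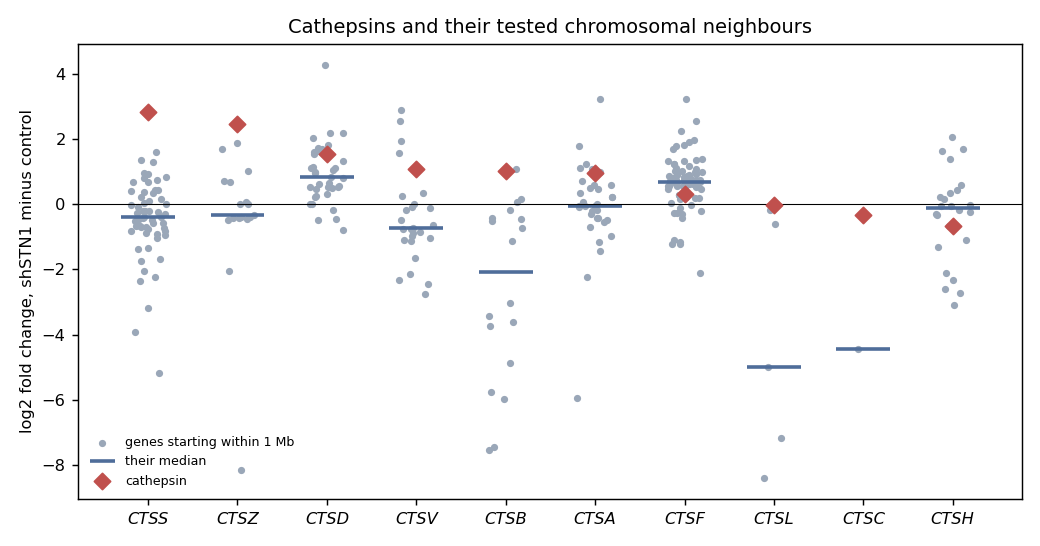
Log2 fold change of shSTN1-labelled minus control libraries for each cathepsin (red diamond) and for the tested genes that start within 1 Mb of it (grey points, blue bar at their median). The median is 0.82 around CTSD and 0.69 around CTSF, while CTSZ, CTSS, CTSL and CTSC lie above all of their neighbours.

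Correlations over these libraries mostly reflect their split into 2 groups. Among 11141 protein-coding genes with a mean of at least 5 CPM, those whose log2 CPM followed CTSZ most closely over the 6 libraries were STX1A, SMPD2 and SAP30BP (Pearson r of 0.99977, 0.99977 and 0.99968), and 981 genes had an r above 0.99. Those closest to CTSH were CCNB1IP1, TRABD and NDRG4 (0.99822, 0.99759 and 0.99733), with 64 genes above 0.99.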

How the data were processed

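RNA-seq was measured in 6 libraries labelled PANC-1, 3 shSTN1 and 3 control. The authors deposited raw read counts per gene. Per the submitters' processing notes, cutadapt, FastQC, STAR 2.7.2b and featureCounts 2.0.1 were used with GRCh38. The sources used here give neither the annotation release nor the strand setting. Of 60668 rows, 45 second copies of pseudoautosomal genes were left out. Positions and transcript lengths came from GENCODE 29, matched by identifier without version for 58516 rows, so lengths may differ from those counted. Upstream sequences came from RefSeq (GRCh38.p14).

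Counts were tested with edgeR 4.0.16 in R 4.3.3 over all 6 libraries without covariates (filterByExpr, TMM factors, robust quasi-likelihood test, Benjamini-Hochberg adjustment over 17451 genes, threshold 0.05). "Rose" and "fell" mean that a gene passed as higher or lower in the shSTN1-labelled libraries. CPM used TMM-scaled library sizes. Each SE belongs to the difference in mean log2 CPM, with a prior count of 2. Intervals came from limma-voom (limma 3.58.1), and DESeq2 1.42.0 served as an alternative. The principal transcript was the longest with the best APPRIS principal tag. The fit was tested on simulated data in which few genes differed. Because 74.1% of the genes tested passed here, that simulation does not bear on the scaling. Within groups, pairs of libraries gave chi-squares of 3.02 to 8.90 per degree of freedom, beyond sampling noise, and each counted as 1 replicate. The members and 14 further lists (230 entries) were chosen with earlier results of these data known. Lists were described by counts and medians, with no set test. Named were all members, STN1, other cathepsins, and up to 4 genes of each list, taken from the 4 with the smallest adjusted p, besides the 3 genes that best followed CTSZ and CTSH. Exceptions are stated. Alternatives were other scalings, filters and tools, a stricter adjusted p, the replicate block and leaving out each library.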

Additional observations from a re-analysis of the deposited data

How the results depend on the processing

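Under 15 alternatives, 146 of 150 member values kept their direction and their side of the threshold, and 8 to 9 members passed. The count at least 2-fold higher, 5, was 3 with library totals and 4 to 5 under the others. The exceptions were CTSF and CTSL. CTSF was lost with library totals without scaling factors (0.12, adjusted p = 0.285) and without shSTN1 replicate 3 (0.25, adjusted p = 0.0507). With library totals, chosen after the data were seen, CTSL passed as lower (-0.21) and STN1 passed as lower (-0.35, adjusted p = 0.0091). When each library was left out in turn, CTSL ran from -0.0506 to 0.0012, its only value above 0 and found without shSTN1 replicate 3, with ranges of -0.22 to -0.06 for STN1, 2.53 to 3.37 for CTSS and 2.35 to 2.54 for CTSZ. The cause was not tested. Counts of all genes past the threshold ran from 11619 at an adjusted p under 0.01 to 13901 with no low-count filter. With the replicate block, 12742 genes and the same number of members, 9, passed, and STN1 was at -0.15. Same-numbered libraries showed correlations of -0.0123, 0.0171 and -0.0337 in their deviations from group means, so no pairing was assumed. At 21 control reads in all, CTSS is the member whose size of difference is least certain.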
